A study of Mus musculus with 9 samples.

Results

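AP-1 is the transcription factor assembled from Jun and Fos proteins, and 8 genes of the family (Jun, Junb, Jund, Fos, Fosb, Fosl2, Batf and Atf3) were followed in regulatory T cells (Tregs) from mouse tumours. The genes were picked by symbol, each matched 1 row, and they make up 8 of the 16409 genes of the normalized expression table. The Tregs were the CD4+ GFP+ cells of tumours grown from LLC, the Lewis lung carcinoma line of mouse, in C57BL/6 mice labelled wild-type. Each library held a pool of 3 to 4 mice, and 3 groups of 3 pools were sequenced. For the Mock group the LLC cells had been mock-transfected, and the mice are labelled untreated. In both other groups the LLC cells expressed β8, a subunit of the integrin αvβ8. Mice of the β8 isotype group received an isotype control antibody. Mice of the anti-β8 group received the antibody C6D4 against β8, injected into the peritoneum from day 7 on, 2 times per week, with 7 mg/kg at each injection. Tumours were taken on day 14. The labels do not say what drives the GFP reporter or whether the transfected lines were single clones, and no group had β8 tumours without antibody, so an effect of β8 and one of receiving an antibody cannot be told apart against Mock.

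All AP-1 proteins bind DNA as pairs held together by a leucine zipper next to a basic region, and Fos proteins need a partner such as a Jun protein. The pairs act with other factors, among them NFAT after T cell receptor stimulation, IRF4 together with BATF, and SMAD proteins downstream of TGF-β, the cytokine whose latent form the integrin αvβ8 activates. Several of the genes are immediate early genes, transcribed within minutes of a stimulus, and the digestion and sorting of tissue is known to be such a stimulus. In Tregs, BATF is known for its part in the effector and tissue-resident programme, and JUNB for its part in the effector function of these cells.

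Levels are in FPKM, a read count divided by transcript length and by library size, so that they can be set side by side between genes as well as between pools. Foxp3, the transcription factor that defines Tregs, lay between 73.2 and 132 FPKM in all 9 pools. It measured 119, 132 and 122 FPKM in the anti-β8 pools, above every other pool (at most 116.6 FPKM). The 8 Treg markers, none of them at 0 in any pool, summed to 3059 to 3509 FPKM in the Mock group. Their sum was 4227 to 4557 FPKM under isotype antibody and 3714 to 4092 under anti-β8. By sign, 6 of these markers were lower and 2 higher in anti-β8 than in β8 isotype. The log2 difference was 0.40 for Foxp3 and -1.50 for Ikzf2, and neither passed the test across all genes described below. Ikzf2 measured 78.0, 29.5 and 18.8 FPKM under anti-β8 and 90.9 to 115.6 under isotype antibody. Anti-β8 pools 2 and 3 stood apart from the others, with 9772 and 9283 genes at 1 FPKM or more against 11785 to 12177 in the other 7 pools. Depth estimated from low values was 0.996 to 1.26 times that of Mock pool 1. That estimate used only genes inside the same window of low values in both libraries, which draws the ratio towards 1. It therefore cannot tell whether these pools were sequenced less deeply. Markers of other cells were present. Summed over the marker list, myeloid markers ranged over 297 to 597 FPKM in the Mock pools, 213 to 782 in β8 isotype and 419 to 744 in anti-β8, with 10 of 10 markers in the table and S100a8 and S100a9 at 0 in 6 and 7 libraries. Fibroblast markers (6 of 8 in the table, with Pdgfra at 0 in 6 libraries) ranged over 13.0 to 16.6, 49.6 to 179.9 and 20.5 to 84.4 FPKM, and B cell markers (5 of 5) over 19.6 to 47.1, 28.7 to 100.3 and 104.6 to 150.9 FPKM. CD8 and NK cell markers (5 of 5, with Ncr1 at 0 in 5 libraries) ranged over 27.8 to 39.7, 24.03 to 56.2 and 46.1 to 56.1 FPKM, and tumour and epithelial markers (4 of 5) over 34.4 to 52.6, 48.4 to 91.8 and 29.4 to 127 FPKM. Endothelial markers (2 of 4) ranged over 11.9 to 13.5, 8.69 to 12.2 and 11.7 to 14.5 FPKM, and erythroid markers (5 of 5, with Alas2 at 0 in 5 libraries) over 61.4 to 327, 30.1 to 39.2 and 0.468 to 84.6 FPKM. The sum of 0.468 belongs to anti-β8 pool 3, where all 5 erythroid markers were at 0 before normalization. Normalization sets such zeros in that pool to 0.0936 FPKM, so this sum is not a measured level. AP-1 genes are transcribed in most of these cell types. The part of other cells in the differences below was not tested, and in pooled cells fewer cells of a type and less RNA per cell cannot be told apart.

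Across the family, Fos stood higher in Tregs of β8 tumours under isotype antibody than in both other groups, Jun stood lower under anti-β8 than in both others, and Fosl2 stepped down from Mock to β8 isotype to anti-β8, in each case with no overlap of pools. Batf lay higher in anti-β8 than in Mock, Atf3 higher in Mock than in β8 isotype, and the abundant Junb and Jund differed by at most 0.20 log2 units between groups. None of these differences passed the test across all genes, a limma model of the 3 group means on log2(FPKM + 1) with Benjamini-Hochberg adjustment and a threshold of 0.05. In β8 isotype against Mock 0 of 8 members passed (0.00796% of all genes tested did), in anti-β8 against β8 isotype 0 of 8 (0.0637% of all genes) and in anti-β8 against Mock 0 of 8 (0.183% of all genes). At an unadjusted p under 0.05, 2 of 8 members stood out in β8 isotype against Mock (5.57% of all genes), Fos on the higher side (2.99% of all genes) and Atf3 on the lower (2.58%). In anti-β8 against β8 isotype 3 did (10.2% of all genes), Jun, Fos and Fosl2, all on the lower side (6.20%, with 3.97% of all genes and no member on the higher). In anti-β8 against Mock 2 did (14.0% of all genes), Jun and Fosl2 on the lower side (7.87%, with 6.09% and no member on the higher). The pools did not overlap for 4 members in the first comparison (17.5% of all genes), Jund and Fos higher (8.98%) and Fosl2 and Atf3 lower (8.47%). They did not overlap for 3 in the second (15.0%), Jun, Fos and Fosl2, all lower (7.63%, with 7.34% of all genes and no member higher). In the third it was 3 (16.3%), Batf higher (7.89%) and Jun and Fosl2 lower (8.40%). The members' median log2 difference was 0.04, -0.08 and 0.06 in the 3 comparisons, beside 0.01, -0.04 and -0.02 over all genes. The 3 comparisons share their groups, so their counts are not independent.

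**Figure D1:**
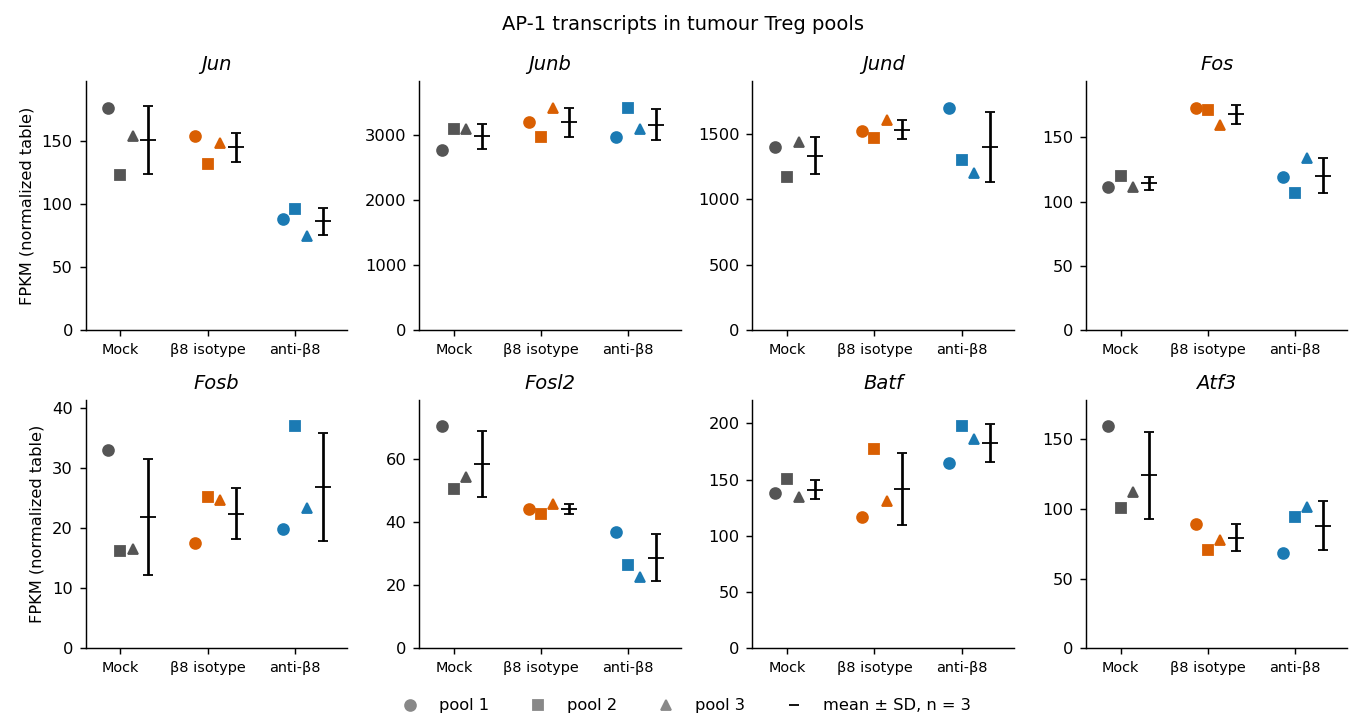
FPKM of the 8 AP-1 genes (vertical axes from 0) in the 3 pools of each group, with marker shapes for the pool number and black bars for the mean ± SD. Every anti-β8 pool lies below every other pool for Jun (74.4 to 95.6 FPKM), every β8 isotype pool above every other pool for Fos (159.7 to 173 FPKM), and the 3 groups of Fosl2 form steps without overlap.

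The Jun proteins can pair with each other as well as with Fos proteins. Jun, which encodes c-Jun, the family member activated by JNK phosphorylation, lies on chromosome 4 at 95049034 to 95052222 (GRCm38, minus strand) and has a single exon. It measured 176, 123 and 153 FPKM in Mock pools 1 to 3, 154, 132 and 148 under isotype antibody, and 88.2, 95.6 and 74.4 under anti-β8. The Mock and β8 isotype pools were intermingled, and the 3 anti-β8 pools lay below the lowest of them. This layout, every anti-β8 pool below every other pool, was found in 3.32% of all genes tested. The mean was 150.7 ± 26.9 FPKM in the Mock pools, 144.7 ± 11.8 under isotype antibody, and 86.1 ± 10.8 under anti-β8 (SD, n = 3 pools). The log2 difference of anti-β8 against β8 isotype was -0.75 ± 0.18 (SE, limma adjusted p = 0.351), and that against Mock was -0.79 ± 0.18 (adjusted p = 0.114). Neither passed, although both 95% confidence intervals, -1.14 to -0.35 and -1.19 to -0.39, lay below 0. Leaving out anti-β8 pools 2 and 3, the differences were -0.70 and -0.75, close to those with these pools included. In that fit anti-β8 is 1 library, which is assumed to vary like the other groups, so its differences are read here as values and not as calls. Between β8 isotype and Mock the difference was -0.05 (interval -0.45 to 0.35). Junos, an antisense gene over the same exon, stood at 1.40 to 6.65 FPKM in the Mock pools and β8 isotype and at 0.0431 to 1.78 in anti-β8. Before normalization it stood at 1.39e-07, 1.02e-07 and 0.417 FPKM in anti-β8 pools 1 to 3. The unnormalized values of the Mock and β8 isotype pools were 1.85 to 6.61 FPKM, with no overlap. The kit does not mark strand, so reads of Jun and Junos cannot be told apart.

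Junb, whose product is the Jun protein most tied to effector Tregs, lies on chromosome 8 at 84974484 to 84978718 and was the most abundant of the family. In the normalized table it measured 2765, 3094 and 3094 FPKM in the Mock pools, 3197, 2970 and 3424 under isotype antibody, and 2970, 3424 and 3094 under anti-β8. Values recur between pools because quantile normalization gives genes of the same rank the same value. The unnormalized values were 2731, 3437 and 2909 FPKM in the Mock pools, 3231, 3315 and 3358 under isotype antibody, and 2931, 3185 and 2743 under anti-β8. In that table the 3 β8 isotype pools lay above the anti-β8 pools and within the range of Mock. The log2 difference in the normalized table was 0.10 ± 0.083 for β8 isotype against Mock (interval -0.08 to 0.28, adjusted p = 1.00), -0.02 ± 0.083 for anti-β8 against β8 isotype (interval -0.20 to 0.17, adjusted p = 0.959) and 0.08 ± 0.083 for anti-β8 against Mock (interval -0.10 to 0.27, adjusted p = 0.680). An exon of Prdx2, a peroxidase gene on the opposite strand, overlaps Junb, and Prdx2 stood at 93.2 to 132 FPKM, far below Junb.

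Jund, which encodes the Jun protein present in most resting cells, lies on chromosome 8 at 70698949 to 70700616 with a single exon. It measured 1398, 1170 and 1439 FPKM in the Mock pools, 1522, 1467 and 1612 under isotype antibody, and 1702, 1305 and 1199 under anti-β8. The β8 isotype pools lay above all Mock pools, and anti-β8 held both a high pool and low ones. The difference of β8 isotype against Mock was 0.20 ± 0.13 (adjusted p = 1.00), and it was -0.04 when the unnormalized table was scaled by library medians, where the direction turned. For anti-β8 it was -0.14 (interval -0.43 to 0.14) against β8 isotype and 0.06 (interval -0.23 to 0.35) against Mock. Gm11175, an antisense gene that overlaps the exon of Jund, stood at 155 to 282 FPKM, and its reads cannot be told apart from those of Jund. It measured 176, 155 and 188 FPKM in the Mock pools, 225, 253 and 210 under isotype antibody, and 282, 250 and 199 under anti-β8. As for Jund, its β8 isotype pools lay above all Mock pools.

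The Fos proteins cannot pair with themselves and bring in the strongest activation domains of the family. Fos, the textbook immediate early gene, lies on chromosome 12 at 85473890 to 85477273 (plus strand) with up to 4 exons. It measured 112, 120 and 111 FPKM in the Mock pools, 173, 171 and 159.7 under isotype antibody, and 119, 107 and 134 under anti-β8. The 3 β8 isotype pools formed a tight group above the other 6, which overlapped. Every β8 isotype pool lay above every other pool in 1.59% of all genes tested. The mean was 114 ± 5.03 FPKM in the Mock pools, 168 ± 7.37 under isotype antibody, and 120.2 ± 13.8 under anti-β8 (SD, n = 3 pools). β8 isotype was 1.47-fold Mock on the log2(FPKM + 1) scale (log2 difference 0.55 ± 0.15 SE, interval 0.22 to 0.88, adjusted p = 0.426), and anti-β8 differed from β8 isotype by -0.49 ± 0.15 (interval -0.81 to -0.16, adjusted p = 0.409), so neither passed. With only the Mock and β8 isotype libraries in the limma fit, the adjusted p of the first difference was 0.101. Anti-β8 and Mock differed by 0.07 (interval -0.26 to 0.39). As a group, the fibroblast marker sum was also highest under isotype antibody and lowest in Mock. By pool it was 49.6, 179.8 and 179.9 FPKM under isotype antibody and 20.5, 84.4 and 69.6 under anti-β8, so these groups overlapped. The part of fibroblasts in the Fos values was not tested.

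Fosb, another immediate early gene of the Fos group, lies on chromosome 7 at 19302696 to 19310051 (minus strand) and was the least abundant member. It measured 33.0, 16.2 and 16.5 FPKM in the Mock pools, 17.5, 25.1 and 24.6 under isotype antibody, and 19.9, 36.9 and 23.4 under anti-β8. The highest pools were Mock pool 1 and anti-β8 pool 2, and all groups overlapped. The differences were 0.09 (interval -0.69 to 0.87) for β8 isotype against Mock, 0.22 (-0.56 to 0.99) for anti-β8 against β8 isotype and 0.31 (-0.47 to 1.09) for anti-β8 against Mock, the widest intervals of the family.

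Fosl2, which encodes FRA-2, a Fos protein without the strong activation domain and more slowly induced than Fos, lies on chromosome 5 at 32135801 to 32157842. It measured 70.4, 50.5 and 54.4 FPKM in the Mock pools, 44.3, 42.6 and 45.9 under isotype antibody, and 37.1, 26.5 and 22.7 under anti-β8. The groups formed 3 steps without overlap, a layout found in 0.462% of all genes tested. The mean was 58.5 ± 10.6 FPKM in the Mock pools, 44.3 ± 1.65 under isotype antibody, and 28.8 ± 7.43 under anti-β8 (SD, n = 3 pools). The log2 difference was -0.38 ± 0.24 for β8 isotype against Mock (adjusted p = 1.00), -0.63 ± 0.24 for anti-β8 against β8 isotype (adjusted p = 0.445) and -1.01 ± 0.24 for anti-β8 against Mock (interval -1.55 to -0.48, adjusted p = 0.134). The size of the last steps rested in part on the pools of low detection: leaving out anti-β8 pools 2 and 3 they were -0.25 and -0.63. Without anti-β8 pool 1 the difference from Mock was -1.20 and passed (adjusted p = 0.0357). That fit keeps only the anti-β8 pools of low detection, and 323 of the 12555 genes tested passed in it, against 23 with all pools. Fosl2 passed in no other of the 19 alternatives.

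Batf encodes a small protein that has a zipper but no activation domain, pairs with Jun proteins and binds next to IRF4. The gene lies on chromosome 12 at 85686669 to 85709087. It measured 138, 151 and 134 FPKM in the Mock pools, 117, 177 and 131 under isotype antibody, and 165, 197 and 186 under anti-β8. The anti-β8 pools lay above all Mock pools, while β8 isotype pool 2 reached into their range. The difference of anti-β8 was 0.37 ± 0.18 against Mock (interval -0.02 to 0.76, adjusted p = 0.384) and 0.38 ± 0.18 against β8 isotype (interval -0.01 to 0.77, adjusted p = 0.497), and β8 isotype differed from Mock by -0.02 (interval -0.40 to 0.37). Leaving out anti-β8 pools 2 and 3, the differences were 0.22 and 0.24. B cells also transcribe Batf, and the B cell marker sum was likewise highest in anti-β8, at 104.6 FPKM or more in each of its pools against 100.3 or less elsewhere. Within β8 isotype, pools 1 to 3 had B cell sums of 57.9, 28.7 and 100.3 FPKM beside 117, 177 and 131 for Batf. The part of B cells in the Batf values was not tested.

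Atf3, a stress-induced member that pairs with Jun proteins and often represses, lies on chromosome 1 at 191170296 to 191218039. It measured 159, 100.6 and 112 FPKM in the Mock pools, 89.4, 70.4 and 78.0 under isotype antibody, and 68.2, 94.1 and 101.6 under anti-β8. All Mock pools lay above all β8 isotype pools, and anti-β8 spanned the gap between them. The difference of β8 isotype against Mock was -0.62 ± 0.23 (interval -1.11 to -0.12, adjusted p = 0.699), that of anti-β8 against Mock was -0.48 ± 0.23 (interval -0.98 to 0.02, adjusted p = 0.373) and that of anti-β8 against β8 isotype was 0.14 ± 0.23 (adjusted p = 0.845). The last turned to -0.21 when anti-β8 pools 2 and 3 were left out.

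**Figure D2:**
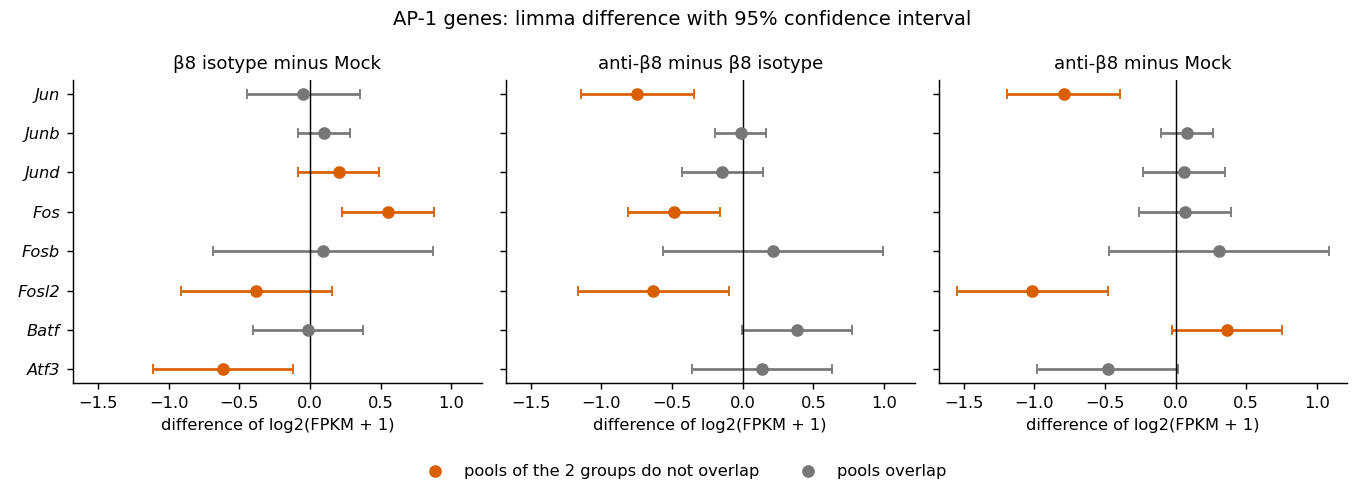
Difference of log2(FPKM + 1) between groups from the limma model (points) with 95% confidence intervals (bars) for the 8 AP-1 genes, 1 panel per comparison; orange marks genes whose pools do not overlap between both groups. Intervals that exclude 0 belong to Fos and Atf3 in the first panel, Jun, Fos and Fosl2 in the second, and Jun and Fosl2 in the third.

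Ordered by mean level over the 9 pools, Junb stood first at 3114 ± 213 FPKM (SD, n = 9 pools) and Jund next at 1424 ± 178, both at or above percentile 99.6 of the listed genes in every pool. Batf, Fos, Jun and Atf3 followed at 155 ± 27.6, 134 ± 26.8, 127 ± 34.6 and 97.04 ± 27.6 FPKM. Their ranges overlapped, and neighbours in this run of genes were not separated by more than their spread. Batf was above Fos in 7 of 9 pools and Fos above Jun in 6 of 9. Fosl2 (43.8 ± 14.4 FPKM) and Fosb (23.7 ± 7.30) came last, and Fosl2 exceeded Fosb in 7 of 9 pools. The order of the middle genes differed between groups, with Jun at place 3 in Mock, 4 under isotype antibody, and 6 under anti-β8, and Batf at places 4, 5 and 3.

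Seen as shares of the Fos genes, which need a Jun partner, Fosl2 took a larger share in Mock than in the β8 groups. Fosl2 made up 32.7%, 27.0% and 29.9% of the summed FPKM of Fos, Fosb and Fosl2 in Mock, 18.9%, 17.8% and 19.9% in β8 isotype, and 21.0%, 15.5% and 12.6% in anti-β8. Every Mock pool lay above every other pool, and the pools of the β8 groups overlapped. Fos itself made up 59.1 ± 6.42% in Mock, 71.6 ± 2.16% under isotype antibody and 68.3 ± 5.86% under anti-β8 (SD, n = 3 pools). Among the Jun genes, Jun was a minor part by level: it made up 3.38 ± 0.639% of the summed FPKM in the Mock pools, 2.97 ± 0.169% in β8 isotype and 1.85 ± 0.139% in anti-β8, and every anti-β8 pool (1.70% to 1.98%) lay below every other pool. The ratio of Batf to Jun was 0.783, 1.23 and 0.876 in Mock, 0.756, 1.35 and 0.882 under isotype antibody, and 1.86, 2.06 and 2.49 under anti-β8, so that Batf transcripts outnumbered Jun transcripts per length in every anti-β8 pool. These shares and ratios were chosen after the values were seen and are given without a test.

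**Figure D3:**
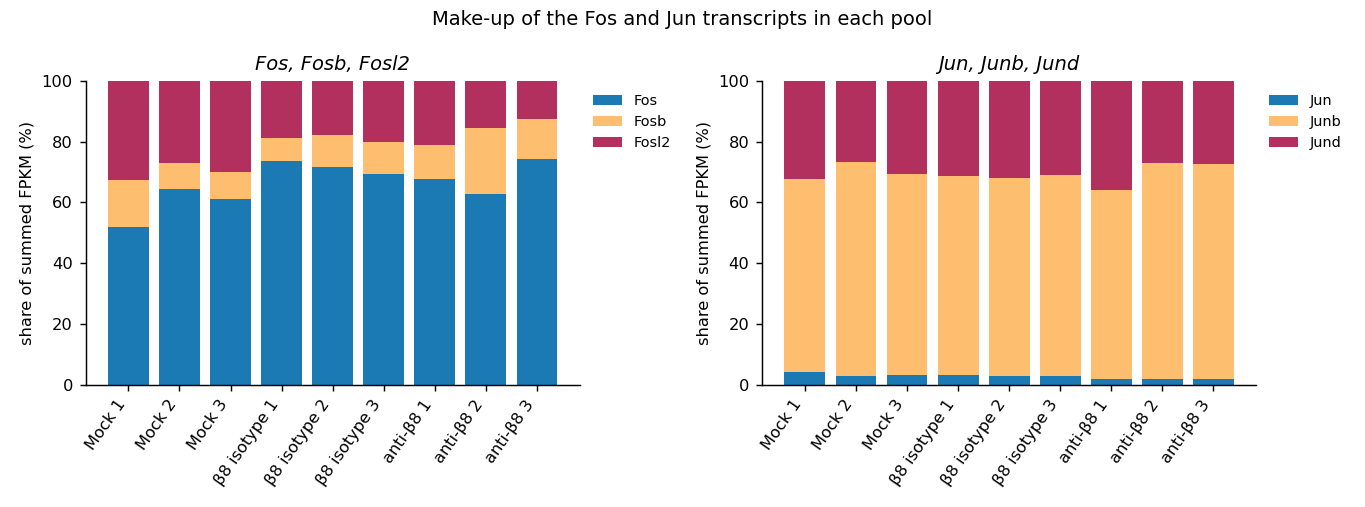
Share in percent of the summed FPKM taken by Fos, Fosb and Fosl2 (left) and by Jun, Junb and Jund (right) in each of the 9 pools, as stacked bars. The Fosl2 share is 27.0% to 32.7% in the Mock pools and 12.6% to 21.0% in the other pools; Junb holds the largest part of the Jun genes in every pool.

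The stretch just before the RefSeq start of Jun, Junb and Fos is printed to compare Jun and Fos, the immediate early genes with a group of pools apart from all others, with the abundant Junb, whose pools overlapped. The sequences are RefSeq's (GRCm38.p6), 250 bases each, read 5′ to 3′ on the strand of the gene: Jun from chr4:95052223-95052472 (minus strand), Junb from chr8:84978749-84978998 (minus strand) and Fos from chr12:85473640-85473889 (plus strand). Capitals mark matches on either strand to TGANNTCA (the general form of an AP-1 or CREB site of 8 letters) and to TGACG (the first letters of a CREB site, contained in some of the former), and, in Fos, a TATA box.
Jun: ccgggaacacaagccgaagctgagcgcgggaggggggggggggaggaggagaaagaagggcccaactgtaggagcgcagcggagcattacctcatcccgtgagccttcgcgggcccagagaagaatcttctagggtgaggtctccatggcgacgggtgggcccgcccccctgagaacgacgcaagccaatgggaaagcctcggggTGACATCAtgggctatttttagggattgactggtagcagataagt
Junb: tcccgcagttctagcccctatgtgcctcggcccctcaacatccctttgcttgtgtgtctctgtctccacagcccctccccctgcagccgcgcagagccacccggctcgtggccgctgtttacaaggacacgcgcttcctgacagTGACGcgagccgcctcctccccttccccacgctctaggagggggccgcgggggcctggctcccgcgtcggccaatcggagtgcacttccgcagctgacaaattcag
Fos: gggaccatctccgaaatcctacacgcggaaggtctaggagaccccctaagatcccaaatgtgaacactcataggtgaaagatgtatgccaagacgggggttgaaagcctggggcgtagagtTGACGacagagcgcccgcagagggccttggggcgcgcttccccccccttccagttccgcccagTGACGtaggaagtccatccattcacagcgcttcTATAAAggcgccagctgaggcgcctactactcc

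In these windows Jun held TGACATCA at -45 to -38 from the RefSeq start, a match that 11.9% of all 32851 promoters of this length share in the general form, and Jund was the other member with such a match. RefSeq and GENCODE starts differ for some members: the window of Jund lies before the RefSeq start 70697739, upstream of the gene start given above, and that of Atf3 before 191183333, inside the span given above, so these windows are not just before the GENCODE starts. Fos held TGACG at -129 to -125 and at -66 to -62 and the TATA box at -33 to -28. TGACG was found in 5 of 8 members (Junb, Fos, Fosb, Batf and Atf3) and in 17.8% of all promoters, and the TATA box letters TATAAA in 1 of 8 and in 12.4%. The canonical AP-1 site TGACTCA (4.46% of all promoters), the full CREB site TGACGTCA (1.55%) and the CArG box bound by SRF (1.47%) were in the windows of 0 of 8 members, which says only that these letters are not in the 250 bases searched.

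The kinases that activate AP-1 and the other zipper factors had no member past the threshold. Of 17 measured genes of the MAP kinase cascade and its targets Elk1, Elk4 and Srf, 0 passed in either direction in any comparison. An unadjusted p under 0.05 was found for 0 of them. Of all genes, 5.57% had one in β8 isotype against Mock, 10.2% in anti-β8 against β8 isotype and 14.0% in anti-β8 against Mock. The median log2 difference of this list was -0.06 in β8 isotype against Mock (0.01 over all genes), -0.07 in anti-β8 against β8 isotype (-0.04 over all genes) and -0.03 in anti-β8 against Mock (-0.02 over all genes). Map3k1, a kinase upstream of JNK, had the smallest p in the first 2 comparisons, at 0.57 ± 0.46 and -0.76 ± 0.46. Of 12 tested genes for other ATF, CREB and Fos-like factors 0 passed in any comparison. Their smallest p belonged to the stress factor Atf4 in β8 isotype against Mock (-0.38 ± 0.16, 301 ± 62.3 against 388 ± 13.8 FPKM), to Fosl1, which encodes FRA-1, in anti-β8 against β8 isotype (-1.33 ± 0.60, pools overlapping) and to Ddit3, which encodes CHOP, in anti-β8 against Mock (-0.97 ± 0.40). In each comparison that gene was the only one of the list with an unadjusted p under 0.05, on the lower side. Of all genes, 2.58%, 6.20% and 7.87% were lower at that level in the order of the comparisons. The medians of this list were -0.23, 0.10 and -0.14 in the same order, beside 0.01, -0.04 and -0.02 over all genes.

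Genes that restrain AP-1, by removing phosphate from MAP kinases or by clearing early transcripts, included Dusp2, which had the layout of Fos. Of 16 measured members 0 passed in any comparison, and 4 had an unadjusted p under 0.05 in β8 isotype against Mock (3 higher and 1 lower, beside 2.99% and 2.58% of all genes). In anti-β8 against β8 isotype 7 did (1 higher and 6 lower, beside 3.97% and 6.20% of all genes), and in anti-β8 against Mock 3 did (all lower, beside 7.87% of all genes lower and 14.0% in either direction). Dusp2, a nuclear MAP kinase phosphatase, measured 208, 251 and 161 FPKM in the Mock pools, 414, 306 and 330.0 under isotype antibody, and 208, 186 and 152 under anti-β8. As for Fos, every β8 isotype pool lay above every other pool. The differences were 0.77 ± 0.19 (adjusted p = 0.385) and then -0.94 ± 0.19 (adjusted p = 0.271). Btg1, an antiproliferative gene, stood at 435 ± 31.5, 422 ± 78.3 and 280 ± 36.8 FPKM, with the anti-β8 pools below all others as for Jun (-0.58 ± 0.15 against β8 isotype, adjusted p = 0.375, and -0.64 ± 0.15 against Mock, adjusted p = 0.136). The list's medians were 0.09, -0.34 and -0.19, beside 0.01, -0.04 and -0.02 over all genes.

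Factors that bind beside AP-1 had 0 of 14 tested members past the threshold in any comparison. Their medians were -0.09, 0.22 and 0.03, beside 0.01, -0.04 and -0.02 over all genes. At an unadjusted p under 0.05, 1 was lower in β8 isotype against Mock (2.58% of all genes). In anti-β8 against β8 isotype 1 was higher and 2 lower (3.97% and 6.20% of all genes). In anti-β8 against Mock 1 was likewise higher and 2 lower (6.09% and 7.87% of all genes). Irf4, the partner of BATF, measured 30.7, 24.7 and 25.8 FPKM in the Mock pools, 18.6, 11.4 and 13.2 under isotype antibody, and 14.3, 23.4 and 7.28 under anti-β8. All Mock pools lay above all others, a layout that Batf did not have. Irf4 differed by -0.89 ± 0.39 in β8 isotype against Mock (adjusted p = 0.870) and by -0.94 ± 0.39 in anti-β8 against Mock (adjusted p = 0.329). Nfatc1, an NFAT factor that binds with Fos and Jun, stood at 22.8 ± 1.46, 23.7 ± 3.84 and 39.2 ± 6.64 FPKM, with all anti-β8 pools above all others as for no AP-1 member (0.70 ± 0.25 against β8 isotype, adjusted p = 0.430, and 0.74 ± 0.25 against Mock, adjusted p = 0.254).

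Genes tied to BATF in effector Tregs had 0 of 15 members past the threshold in any comparison, and some lay in the opposite direction to Batf under anti-β8. In anti-β8 against β8 isotype 6 members were lower and 1 higher at an unadjusted p under 0.05 (6.20% and 3.97% of all genes), with a list median of -0.24 beside -0.04 over all genes. By sign alone, 9 were lower and 6 higher like Batf. The pools did not overlap for 6 lower and 2 higher members (7.63% and 7.34% of all genes). Those 2 were Klrg1 (0.43 ± 0.16, adjusted p = 0.430) and Gata3 (0.30 ± 0.21, adjusted p = 0.618). Areg, the growth factor amphiregulin, measured 93.7, 123.8 and 86.7 FPKM in the Mock pools, 201, 152 and 143 under isotype antibody, and 84.5, 60.0 and 40.0 under anti-β8 (-1.46 ± 0.27 against β8 isotype, adjusted p = 0.177). Il10 stood at 59.1 ± 18.3 FPKM under isotype antibody and 17.0 ± 12.1 in anti-β8 (-1.96 ± 0.49, adjusted p = 0.351), and the inhibitory receptor gene Pdcd1 at 89.3 ± 16.3 and 48.2 ± 14.8 (-0.90 ± 0.24, adjusted p = 0.368). In β8 isotype against Mock 5 members were higher and 0 lower at an unadjusted p under 0.05 (2.99% and 2.58% of all genes), led by Ctla4 (0.68 ± 0.17) and Icos (0.75 ± 0.21), and the median was -0.03 beside 0.01 over all genes. In anti-β8 against Mock 3 were lower and 0 higher (7.87% and 6.09% of all genes), with a median of -0.02, that of all genes.

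Because handling of tissue can induce Fos, Jun, Junb, Fosb and Atf3, 28 other genes known from such responses were read beside them. Of these, 0 passed in β8 isotype against Mock (0.00796% of all genes), 1 in anti-β8 against β8 isotype (0.0637%) and 2 in anti-β8 against Mock (0.183%), all lower. At an unadjusted p under 0.05, 2 were higher and 6 lower in the first comparison (2.99% and 2.58% of all genes) and 2 higher and 6 lower in the second (3.97% and 6.20%). In the third 0 were higher and 13 lower (6.09% and 7.87%). The stress-induced chaperone genes Hspa1a and Hspa1b were highest in Mock and lowest in anti-β8, the order also measured for Fosl2. Hspa1a measured 119.9, 74.6 and 77.0 FPKM in the Mock pools, 21.4, 24.4 and 44.0 under isotype antibody, and 12.4, 5.92 and 7.98 under anti-β8, and its groups did not overlap. In anti-β8 against Mock Hspa1a fell by 3.25 ± 0.36 on the log2 scale (adjusted p = 0.00333) and Hspa1b by 3.26 ± 0.36 (adjusted p = 0.00352). These genes are near-identical copies that can share reads. Leaving out anti-β8 pools 2 and 3, the differences from Mock were -2.74 for Hspa1a and -2.85 for Hspa1b, with 1 anti-β8 library and the spread taken from the other groups. Nfkbia, whose product holds NF-κB in the cytoplasm, fell under anti-β8 (1323 ± 121 FPKM) relative to isotype antibody (2033 ± 103 FPKM) (adjusted p = 0.0408), a call lost in 16 of the 19 alternatives (adjusted p from 0.0281 to 0.428). One of these is the fit without anti-β8 pools 2 and 3, where the difference was -0.54 and the spread came from the other groups alone. The list's medians were -0.25, -0.30 and -0.39, against 0.01, -0.04 and -0.02 over all genes.

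Ier2, Egr1 and Nr4a1, immediate early genes of that list, did not have the layout of Jun or of Fos. Klf6 and Nfkbia had that of Jun, with every anti-β8 pool below every other pool. Unlike for Jun, the β8 isotype pools of Nfkbia (1958, 2151 and 1989 FPKM) also lay above its Mock pools (1818, 1718 and 1764 FPKM). Ier2 stood at 499 ± 49.8, 539 ± 61.0 and 475 ± 56.7 FPKM in the Mock pools, β8 isotype and anti-β8, and Egr1 at 74.6 ± 16.9, 71.8 ± 14.0 and 87.1 ± 10.01 (SD, n = 3 pools). Nr4a1 stood at 533 ± 33.8, 665 ± 152 and 530.5 ± 9.54 FPKM. The pools of these 3 genes overlapped in every comparison. Klf6 stood at 248 ± 14.9, 237 ± 23.8 and 174 ± 12.9 FPKM, with all anti-β8 pools below all others (-0.44 ± 0.14 against β8 isotype, adjusted p = 0.409). Ier3, Ier5, Egr2 and Nr4a3 did reach an unadjusted p under 0.05 in some comparison, and none of them passed after adjustment. Ier3 was higher in β8 isotype than in Mock (1.51 ± 0.43), and Ier5 was lower (-0.59 ± 0.20). Ier5 was also lower in anti-β8 than in Mock (-0.89 ± 0.20). Egr2 and Nr4a3 were higher in anti-β8 than in β8 isotype (1.67 ± 0.55 and 0.55 ± 0.20). The pools of these differences did not overlap. The labels give no handling time, digestion step or processing day, so the part of handling in the AP-1 values was not tested.

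**Figure D4:**
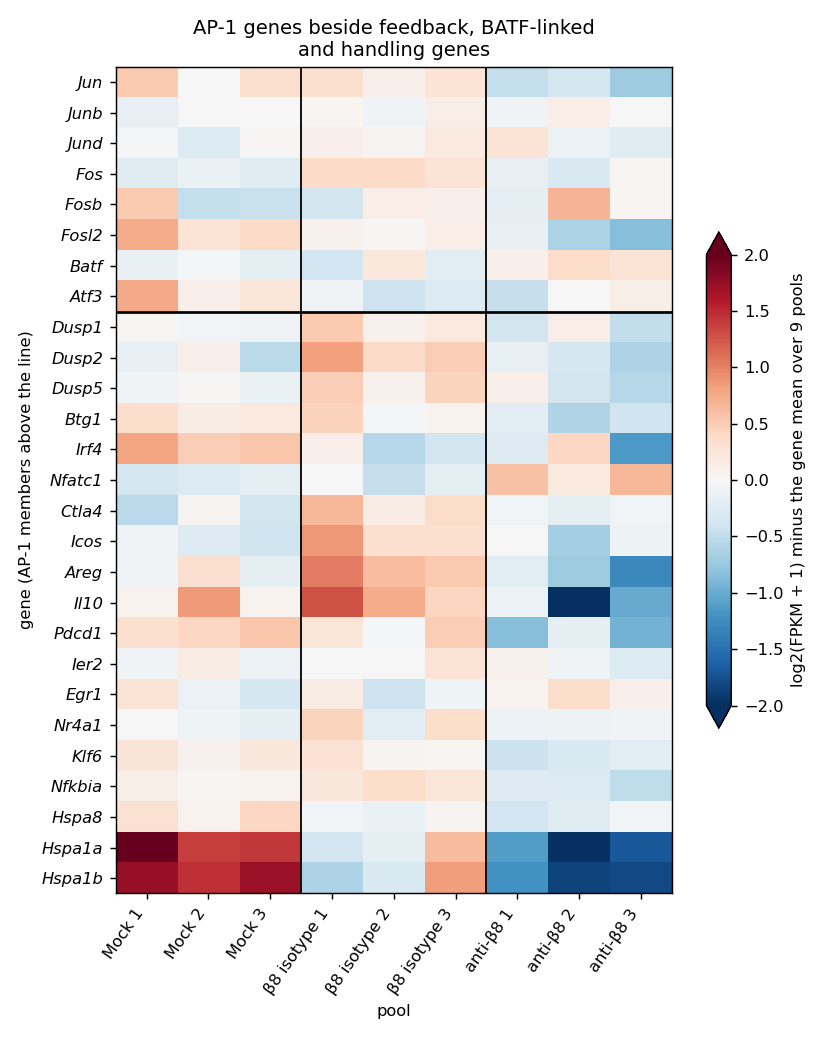
Heat map of log2(FPKM + 1) minus the mean of each gene over the 9 pools (columns, grouped by condition) for the 8 AP-1 genes above the line and 19 genes of the feedback, partner, BATF-linked and handling lists below it; the colour scale ends at -2 and 2. Hspa1a and Hspa1b are high in the 3 Mock pools and low in the 3 anti-β8 pools, and the AP-1 genes stay within a narrower range.

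The genes whose profiles lay nearest to each member, by the root mean square difference of mean-centred log2(FPKM + 1) over the 9 pools among 10506 other named genes, differed between members. For Jun they were Itgav, which encodes the integrin αv chain (0.101 log2 units, with a median of 0.627 over all genes), the leukotriene receptor gene Cysltr2 (0.141) and Endod1 (0.155). Itgav measured 338 ± 43.1, 325 ± 39.5 and 192 ± 44.5 FPKM in the Mock pools, β8 isotype and anti-β8. For Fos they were Trac, the constant segment of the T cell receptor α chain (0.108), the MHC class I gene H2-K1 (0.114) and Tor1aip1 (0.134). H2-K1 measured 2075 ± 247, 2874 ± 190 and 2333 ± 183 FPKM, highest in β8 isotype like Fos. For Fosl2 they were the SUMO protease gene Senp2 (0.131), Nol10 (0.155) and the linker histone gene Hist1h1c (0.157), and for Batf they were Grcc10 (0.0909), Mir5126 (0.114) and Rex1bd (0.117). Those of Atf3 were Pde1b (0.135), Lpxn (0.140) and Ctnnb1, which encodes β-catenin (0.152), and those of Fosb were Adamts10 (0.145), Atf5 (0.172) and Hmgb3 (0.199). Pde1b (means of 2.58, 1.17 and 1.11 FPKM) and Atf5 (1.02, 0.993 and 1.63 FPKM) lay near the filter of 1 FPKM. At such levels the added 1 flattens a profile. How near the closest of 10506 genes would lie by chance was not tested. Junb lay nearest to Psmd14, Ppia and Btf3, and Jund to Polr1e, Sf3b3 and Riok1. No other AP-1 member was among the 3 nearest genes of any member.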

How the data were processed

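Full-length cDNA libraries without strand marking were made from CD4+ GFP+ cells, per the labels' protocols. The authors deposited FPKM in 2 tables, unnormalized (53251 genes) and normalized (16409 genes), and the values of the latter show quantile normalization over genes whose highest FPKM is above 1. Per the submitters' processing notes, the tools were Cufflinks, Picard, RSEM 1.3.1, STAR 2.6.1a and Trim Galore 0.5.0, with build GRCm38; their roles are not given in the sources used. Symbols were taken from the unnormalized table, coordinates and overlaps from GENCODE M21, and 1 row with shifted cells was left out. Genes reaching 1 FPKM in 3 or more libraries were tested (12555, including all 8 members), and log2(FPKM + 1) was fitted with limma 3.58.1 (R 4.3.3; trend and robust settings, two-sided), which was tested on simulated data. Count models do not suit FPKM and were not used, and read totals are not in the tables. Each p-value reflects the spread among pools of mice. The genes named are the 8 members, the genes of smallest p in each list and the 3 genes of nearest profile to each member. Chosen after their values were seen were Ier2, Egr1, Nr4a1, Klf6, Ier3, Ier5, Egr2, Nr4a3, Klrg1, Gata3, Ikzf2 and the overlapping genes Junos, Prdx2 and Gm11175. The members, lists and tests were chosen with earlier results of these data known. The labels do not say that the pool numbers 1 to 3 pair the groups, and the main fit did not use them.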

Additional observations from a re-analysis of the deposited data

How the results depend on the processing

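Of 456 values of the members over 3 comparisons and 19 alternatives, 432 kept their direction and stayed on the same side of the threshold, 23 turned in direction and 1 newly passed. Those of Jun, Fos and Fosl2 under anti-β8 against β8 isotype, and of Fos, Fosl2 and Atf3 in β8 isotype against Mock, kept their direction in every alternative. The unnormalized table shifted the median of all genes to -0.20 in anti-β8 against β8 isotype and to -0.15 in anti-β8 against Mock. For the values below the cause was not tested. In β8 isotype against Mock, Jund turned to -0.037 with median-centred unnormalized values, as did Nfkbia (-0.039). Jun turned to 0.073 without Mock pool 1 and to 0.020 without β8 isotype pool 2 (range with 1 pool left out -0.19 to 0.073), Fosb to -0.078 and -0.064 without Mock pools 2 and 3 (to 0.42), and Batf to 0.033 without Mock pool 2 and to 0.11 and 0.030 without β8 isotype pools 1 and 3 (from -0.19). In anti-β8 against β8 isotype, Jund turned to 0.096 with median-centred values and Atf3 to -0.015 with array weights. Without anti-β8 pools 2 and 3 Jund was at 0.15, Fosb at -0.14 and Atf3 at -0.21. Junb turned to 0.035 without β8 isotype pool 3 and to 0.028 without anti-β8 pool 1 (from -0.074), and Fosb to -0.033 without anti-β8 pool 2 (to 0.396). In anti-β8 against Mock, Junb turned to -0.031 with the unnormalized table, -0.018 with median-centred values and -0.0049 without anti-β8 pools 2 and 3, where Fosb was at -0.053. Jund turned to -0.033 without Mock pool 2 and to -0.089 without anti-β8 pool 1 (to 0.16), and Fos to -0.017 without anti-β8 pool 3.

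The number of members called was 0 in all comparisons and alternatives except anti-β8 against Mock without anti-β8 pool 1, where it was 1 (Fosl2). The count of all genes called in β8 isotype against Mock, 1, became 0 with median-centred values and with plain limma moderation, 29 with only the 6 libraries compared, 2 with a replicate block, 111 with array weights and 30 without anti-β8 pools 2 and 3, and 1 to 2 when 1 pool was left out. In anti-β8 against β8 isotype 8 became 2 with the unnormalized table, median-centred or not, 3 with a pseudocount of 0.1, with only 6 libraries or with plain limma moderation, 2 with a replicate block, and 2 to 142 when 1 pool was left out (142 without anti-β8 pool 1). In anti-β8 against Mock 23 became 15 with no filter, 15 with a replicate block, 14 with array weights and 13 with plain limma moderation, and 9 to 323 when 1 pool was left out (323 without anti-β8 pool 1). The replicate block, with pool number as a term, changed no call of a member. Pools of the same number correlated at -0.040 to 0.046 across genes (deviations from group means), and pools of different number at -0.045 to 0.071. No pairing by number was seen, although with 3 pools a group a weak one could be missed. Depth in reads is unknown, so counting error of single members could not be given.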
